A study of Homo sapiens with 6 samples.

Results

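The BCL2 family decides at the outer mitochondrial membrane whether a stressed cell dies by apoptosis. BH3-only proteins sense damage and bind the anti-apoptotic proteins, which otherwise hold the effectors BAX and BAK1 in check, and freed effectors form pores that release cytochrome c. The messenger RNAs of 10 family genes were followed in HEK293T, a line from human embryonic kidney that carries the simian virus large T antigen. The genes were chosen by symbol as 5 BH3-only members (BBC3, PMAIP1, BCL2L11, BMF and BIK), 2 effectors (BAX and BAK1) and 3 anti-apoptotic members (BCL2, BCL2L1 and MCL1). Each symbol matched 1 of the 56832 rows of every count table, and all 10 passed the filter on low counts that left 17415 genes for testing.

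All libraries came from HEK293T cells with a knockout of GLO1, the enzyme that starts the clearance of methylglyoxal (MGO), a reactive by-product of glycolysis. Poly(A) RNA was sequenced from 3 untreated libraries (numbers 1, 2 and 4) and from 3 libraries of cells given 0.2 mM MGO overnight (numbers 1, 3 and 4). No library of cells with intact GLO1 was analysed here, and the labels do not say whether the knockout line is 1 clone. Separate cultures are not stated either, and the p-values therefore reflect the spread between these libraries, some or all of which may be technical.

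Untreated libraries held 41002134 to 45910040 counts and MGO libraries 19195920 to 21544749, so depth followed treatment and their effects cannot be told apart by design. GLO1 itself was detected in every library, at 1969 to 2365 counts (46.2 to 51.0 CPM) in untreated and 2434 to 3048 counts (134 to 145 CPM) in MGO, and gene-wide counts do not check a small coding lesion. Mitochondrial transcripts took 4.20% to 5.42% of untreated and 5.34% to 8.17% of MGO counts. Of 10 markers of kidney epithelium and of this line, KRT8 had 14931 to 25589 counts and VIM 7819 to 16854 in a library, while the kidney factor PAX8 had 0 to 2. Their summed level was 1435 to 1480 CPM in untreated and 1656 to 1670 CPM in MGO, with KRT8, KRT18 and VIM higher and the other 7 lower in mean CPM, among them CDH2 (206 and 94.7), NEFL (165 and 38.1) and PAX2 (13.2 and 2.78). Among markers of other cell types, the leukocyte genes PTPRC and CD3E had at most 3 counts and the endothelial gene PECAM1 at most 2 in a library. Others were detected: LCP1 made up nearly all of the 5-gene leukocyte sum (165 to 168 CPM in untreated, 135 to 139 in MGO), COL1A1 most of the fibroblast sum (23.7 to 25.1 and 11.2 to 13.2 CPM), and KDR had 8 to 73 counts. The part of these markers in the results was not tested. Levels are given as TMM-scaled CPM, which normalize each library to its depth and then to the bulk of the tested genes. A change is thus relative to those genes and not absolute, and fewer cells and less RNA per cell cannot be told apart.

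Every member differed between the groups, but no class moved as a block. Of the 10 genes, 5 rose and 5 fell with MGO by edgeR's quasi-likelihood test (adjusted p under 0.05), where 83.1% of all tested genes were called, 41.8% as higher and 41.2% as lower. The MGO libraries lay wholly above or wholly below the untreated ones for all 10 members, as they did for 83.5% of all genes. A count of this kind is therefore close to the background, and the sizes and directions of single members carry the description. At least 2-fold falls were seen in 3 members (16.7% of all genes) and at least 2-fold rises in 2 (19.8%). The members' median log2 fold change was -0.08, against 0.01 over all genes tested.

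**Figure D1:**
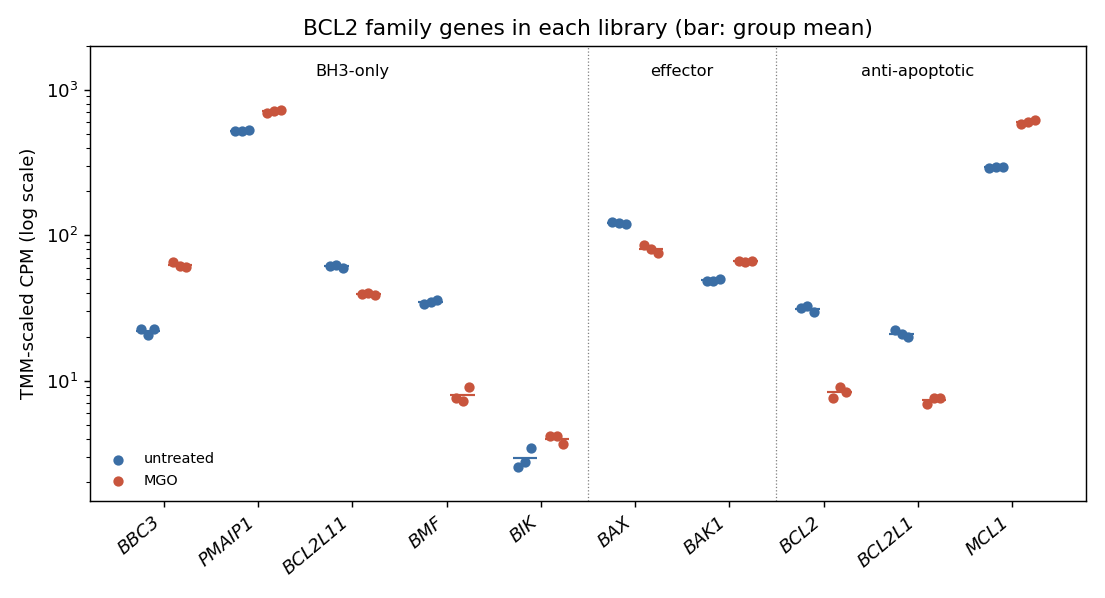
TMM-scaled CPM of the 10 members on a log axis, with 1 point per library, a bar at the group mean (n = 3 per group) and classes divided by dotted lines. BMF, BCL2 and BCL2L1 lie far lower in MGO and BBC3 and MCL1 far higher, while BIK, the lowest gene in untreated libraries at 2.57 to 3.45 CPM, shows the narrowest gap.

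BH3-only genes split, with BBC3, PMAIP1 and BIK higher and BMF and BCL2L11 lower in MGO. BBC3 encodes PUMA, a BH3-only protein that binds all the main anti-apoptotic proteins, and lies on hg38 chromosome 19 at 47220822 to 47232766, minus strand. It stood at 22.6, 20.6 and 22.6 CPM in untreated libraries 1, 2 and 4 and at 65.7, 61.6 and 60.6 CPM in MGO libraries 1, 3 and 4. The lowest MGO value was well above the highest untreated value. The mean went from 21.9 ± 1.12 to 62.7 ± 2.69 CPM (SD, n = 3), a 2.86-fold rise (log2 fold change 1.51, SE 0.051, adjusted p = 1.59e-22, edgeR quasi-likelihood test). BBC3 was the only member with more raw counts in MGO than in untreated libraries, 1204 against 999 on average, although the MGO libraries had 0.455 times the depth.

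BMF encodes a BH3-only protein that in healthy cells is held at the cytoskeleton by a dynein light chain, and it showed the largest fall of the 10 genes. The gene lies on chromosome 15 at 40087890 to 40108892, minus strand. Untreated libraries 1, 2 and 4 had 33.5, 34.9 and 36.1 CPM and MGO libraries 1, 3 and 4 had 7.57, 7.30 and 9.03 CPM. All 3 MGO libraries were thus at about the same low level, resting on 136 to 190 counts each. BMF-AS1 overlaps 8.46% of the annotated exon bases of BMF on the other strand, so antisense reads may enter these counts. The fall was 4.34-fold (log2 fold change -2.12, SE 0.073, adjusted p = 2.81e-22, edgeR quasi-likelihood test), and BMF was the only member down at least 4-fold, as 3.76% of all genes were. Its log2 fold change stood at the 3.04th percentile of all genes tested, and that of BBC3 at the 86.8th.

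The windows before the RefSeq start sites (GRCh38.p14) of these 2 genes are shown because they hold the largest rise and the largest fall. The window of BAX is added because of its repeated E-boxes, a choice made after its sequence and values were seen. Each stretch ends just before the first exon base annotated for the gene, and capitals mark matches on either strand to the motifs searched: the CRE (TGACGTCA), the AP-1 site (TGANTCA), an ATF4 composite site (TTGCATCA), the E-box (CACGTG) and the GC box (GGGCGG).
BBC3, chr19:47232767-47232917, minus strand: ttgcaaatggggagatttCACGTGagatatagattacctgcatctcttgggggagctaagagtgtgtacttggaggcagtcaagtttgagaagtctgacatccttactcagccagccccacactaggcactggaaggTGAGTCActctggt
BMF, chr15:40108893-40109129, minus strand: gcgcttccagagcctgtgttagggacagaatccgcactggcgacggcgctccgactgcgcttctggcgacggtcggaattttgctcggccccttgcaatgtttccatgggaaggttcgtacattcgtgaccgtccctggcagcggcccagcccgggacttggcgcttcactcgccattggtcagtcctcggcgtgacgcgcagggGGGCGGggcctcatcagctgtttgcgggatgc
BAX, chr19:48954625-48954814, plus strand: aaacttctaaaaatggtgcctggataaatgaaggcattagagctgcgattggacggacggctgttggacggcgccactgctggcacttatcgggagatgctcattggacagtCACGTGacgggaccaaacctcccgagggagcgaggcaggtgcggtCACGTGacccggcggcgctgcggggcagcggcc

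Over the full 250 bases before its start, BBC3 held 1 E-box and 1 AP-1 match, the latter beginning 113 bases before the start. Of 35116 RefSeq windows of that length, 6.34% held an E-box, 6.57% an AP-1 match, 1.65% a CRE, 0.772% the ATF4 composite letters and 42.6% a GC box. BMF had 1 GC box before this start and no match before its second annotated start. BAX had 4 E-boxes and 1 GC box, and 4 or more E-boxes occurred in 5 of all windows (0.0142%), BAX included. Since BAX was picked for its E-boxes, that share is no test. The last 60 bases of the BAX window are annotated exon. They hold the E-boxes at 45 and 14 bases before the start and the GC box at 52, which the printed stretch leaves out. PMAIP1 had 4 GC boxes, BCL2L11 had 3 and BAK1 had 2, while the BCL2 and BCL2L1 windows held none of the motifs. However, all 250 bases of the BCL2 window and 230 of the second BCL2L1 window are annotated exon of the gene itself. The stretch before the first annotated exon of BCL2 was thus not searched. The BCL2L11 window, from 111120664, lies inside the annotated gene, which begins at 111119378 on the plus strand. The stretch before the first annotated exon of BCL2L11 was not searched either. No window of the 8 members in the table held a CRE or the composite letters. BIK and MCL1 were not in the table. A match describes letters, not a bound site.

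PMAIP1 encodes NOXA, a BH3-only protein that binds mainly MCL1 and promotes its breakdown. It was the most abundant member on the scale of CPM per kb of exon, at 250 ± 0.627 in untreated and 338 ± 7.57 in MGO libraries. In CPM it stood at 524, 523 and 526 in untreated libraries 1, 2 and 4 and at 691, 715 and 721 in MGO libraries 1, 3 and 4. The 1.35-fold rise (log2 fold change 0.44, SE 0.034, adjusted p = 2.56e-13, edgeR quasi-likelihood test) was small beside that of BBC3, and it did not exceed a fold of 1.5 (adjusted p = 1 in that test). Raw counts of PMAIP1 were lower in MGO (13669 against 23903 on average), so the rise appears only once depth is taken into account.

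BCL2L11 encodes BIM, a BH3-only protein that can also activate BAX directly. It had 61.5, 62.9 and 60.0 CPM in untreated libraries 1, 2 and 4 and 39.4, 40.0 and 38.6 CPM in MGO libraries 1, 3 and 4. The groups were tight and apart, with a 1.56-fold fall (log2 fold change -0.65, SE 0.046, adjusted p = 2.95e-14, edgeR quasi-likelihood test). In the test against a fold of 1.5 the adjusted p was 0.0647. MIR4435-2HG overlaps 10.9% of its annotated exon bases on the other strand, so antisense reads may enter its counts.

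BIK, an activator of apoptosis that sits largely in the endoplasmic reticulum, was expressed near the bottom of the family. It had 2.57, 2.78 and 3.45 CPM in untreated libraries 1, 2 and 4 and 4.14, 4.19 and 3.66 CPM in MGO libraries 1, 3 and 4, from 75 to 147 counts. The highest untreated and lowest MGO values were close, and the rise was 1.36-fold (log2 fold change 0.45, SE 0.14, adjusted p = 0.00406, edgeR quasi-likelihood test). This was the least secure call of the family. It was lost without both libraries numbered 1 (adjusted p = 0.0622), with the DESeq2 Wald test (0.0781), with no filter on low counts (0.107) and with the replicate number as a block (0.0615), in a range over alternatives of 0.00105 to 0.930.

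The anti-apoptotic genes went opposite ways, MCL1 up and BCL2 and BCL2L1 down. MCL1 encodes a short-lived anti-apoptotic protein and lies on chromosome 1 at 150574551 to 150579738, minus strand. It stood at 289, 296 and 295 CPM in untreated libraries 1, 2 and 4 and at 585, 599 and 623 CPM in MGO libraries 1, 3 and 4. Every MGO library was close to double any untreated one in CPM, a rise of 2.05-fold (log2 fold change 1.04, SE 0.035, adjusted p = 1.87e-22, edgeR quasi-likelihood test).

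BCL2, the founding member of the family, lies on chromosome 18 at 63123346 to 63320128, minus strand. It had 31.6, 32.6 and 29.6 CPM in untreated libraries 1, 2 and 4 and 7.57, 9.07 and 8.41 CPM in MGO libraries 1, 3 and 4, the latter from 137 to 177 counts. The fall was 3.75-fold (log2 fold change -1.91, SE 0.073, adjusted p = 4.31e-21, edgeR quasi-likelihood test), at the 4.37th percentile of all genes tested.

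BCL2L1, which encodes BCL-XL and by splicing the pro-apoptotic BCL-XS, lies on chromosome 20 at 31664452 to 31723989, minus strand. Untreated libraries 1, 2 and 4 had 22.2, 20.9 and 19.9 CPM and MGO libraries 1, 3 and 4 had 6.96, 7.57 and 7.65 CPM. The groups were far apart, a 2.84-fold fall (log2 fold change -1.50, SE 0.078, adjusted p = 1.13e-17, edgeR quasi-likelihood test). Counts per gene do not separate the splice forms of BCL2L1, MCL1 or BCL2L11. The antisense gene ABALON shares 43.0% of the exon bases of BCL2L1. Its own row held 7 to 41 counts per library (0.713 ± 0.125 CPM in untreated and 0.560 ± 0.306 CPM in MGO). As the strand setting is not stated, that row cannot tell how reads from the shared bases were counted.

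The 2 effectors also parted. BAX (chromosome 19, 48954815 to 48961798) stood at 123, 122 and 120 CPM in untreated libraries 1, 2 and 4 and at 85.3, 79.9 and 75.4 CPM in MGO libraries 1, 3 and 4. BAK1 (chromosome 6, 33572547 to 33580293) stood at 48.6, 48.2 and 49.9 CPM in the former 3 and at 66.2, 65.8 and 66.6 CPM in the latter. Neither gene's groups overlapped. BAX fell 1.52-fold (log2 fold change -0.60, SE 0.042, adjusted p = 2.21e-14) and BAK1 rose 1.35-fold (log2 fold change 0.44, SE 0.042, adjusted p = 5.51e-11, edgeR quasi-likelihood test). Against a fold of 1.5 neither passed (adjusted p = 0.287 for BAX and 1 for BAK1). Among the MGO libraries, BAX and BBC3 were highest in library 1 and lowest in library 4. The mitochondrial share ran the same way (8.17%, 6.00% and 5.34%), and MCL1, PMAIP1 and BCL2L1 ran the other way. The part of that share in these values was not tested. Without both libraries numbered 1 the calls on these genes kept their direction and passed the test. That omission does not test the share, which stayed higher in the remaining MGO libraries than in the remaining untreated ones (4.204% and 4.275%).

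**Figure D2:**
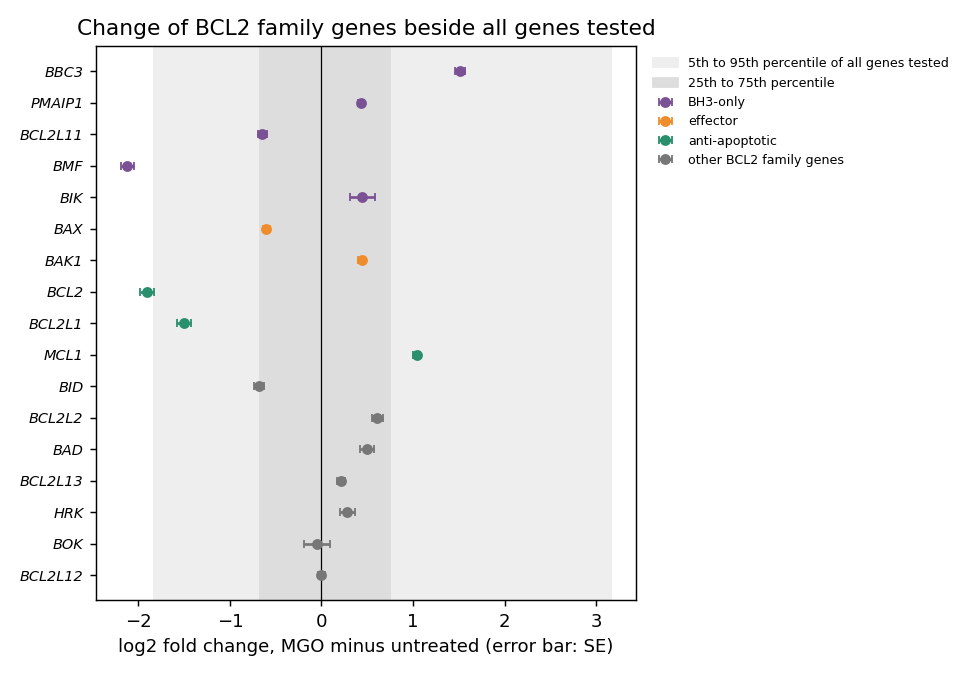
Log2 fold change of each member and of 7 other BCL2 family genes (points, with SE as error bars) over the 5th to 95th and 25th to 75th percentiles of all 17415 genes tested (grey bands). BMF and BCL2 lie below the 5th percentile of -1.83, and no family gene reaches the 95th percentile of 3.16.

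Levels of different genes were compared per kb of exon, using the joined exons of protein-coding transcripts in GENCODE 29 basic. In untreated libraries the order was PMAIP1 (250 CPM per kb), BAX (86.0), MCL1 (71.8), BAK1 (22.1), BBC3 (10.5), BCL2L11 (10.1), BCL2L1 (7.35), BMF (7.08), BIK (3.08) and BCL2 (2.67). Neighbours whose libraries overlapped, and so did not differ beyond their spread, were BBC3 and BCL2L11, BCL2L1 and BMF, and BIK and BCL2. In MGO the order was PMAIP1 (338 CPM per kb), MCL1 (147), BAX (56.8), BBC3 and BAK1 (both 29.9, with overlapping libraries), BCL2L11 (6.45), BIK (4.19), BCL2L1 (2.59), BMF (1.62) and BCL2 (0.711). MCL1 thus passed BAX and BBC3 drew level with BAK1, while BCL2 was last in MGO and overlapped BIK at the bottom of the untreated order. The transcripts in use are not known from gene counts, and a long annotated exon such as that of BCL2 (11.7 kb in all) lowers its value per kb.

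Within the anti-apoptotic class, MCL1 supplied 87.1% to 88.4% of the summed CPM per kb in untreated and 97.7% to 97.9% in MGO libraries. BCL2L1 went from 8.53% to 9.56% of that sum in untreated down to 1.67% to 1.76% in MGO, and BCL2 from 3.09% to 3.37% down to 0.441% to 0.515%. The class sum itself was 81.2 to 82.6 CPM per kb in untreated and 146 to 156 in MGO libraries. Among BH3-only genes PMAIP1 held about the same share in both groups (88.8% to 89.2% in untreated and 88.3% to 89.4% in MGO). The BBC3 share went from 3.53% to 3.85% up to 7.53% to 8.42%, and the class sum from 279 to 282 up to 373 to 385 CPM per kb. The effector sum went from 107 to 109 down to 83.5 to 90.3 CPM per kb, with BAK1 at 20.1% to 21.0% of it in untreated and 33.1% to 36.0% in MGO. These sums and shares are descriptions over chosen genes and were not tested.

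**Figure D3:**
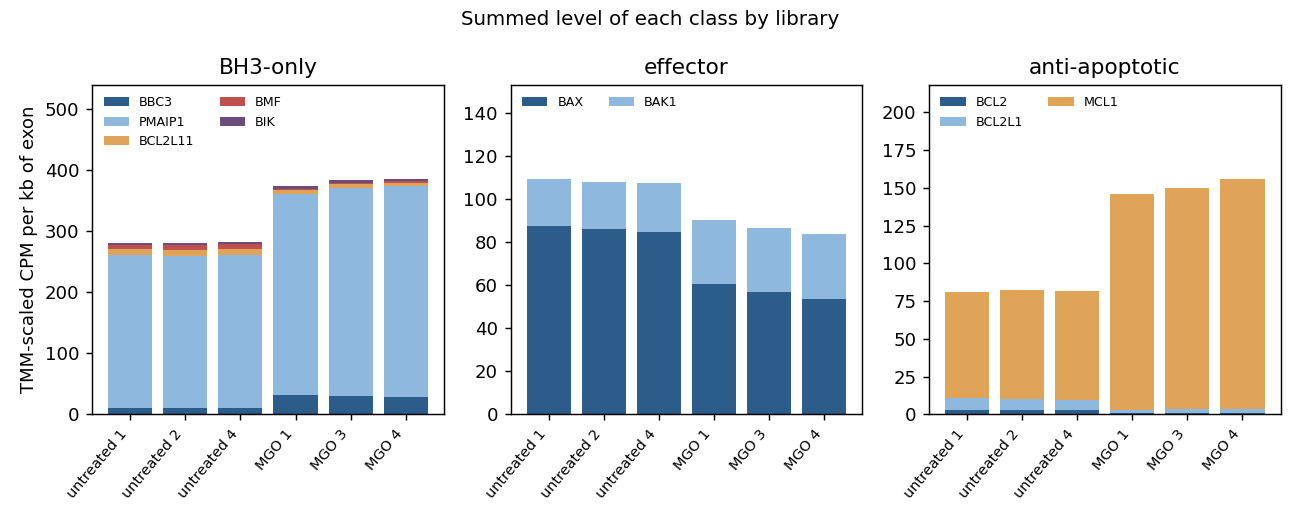
Stacked bars of TMM-scaled CPM per kb of exon for the members of each class in each of the 6 libraries, with each axis starting at 0 and scaled to its class. PMAIP1 fills most of the BH3-only bars and MCL1 most of the anti-apoptotic bars, which reach 146 to 156 in MGO, and BAX shrinks while BAK1 grows among the effectors.

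Ratios of counts within a library do not depend on how libraries are scaled. The MCL1 to BCL2 count ratio was 9.13, 9.07 and 9.94 without MGO (libraries 1, 2 and 4) and 77.2, 66.1 and 74.0 with it (libraries 1, 3 and 4), a 7.72-fold higher mean. The MCL1 to BCL2L1 ratio was 5.83-fold higher in MGO on average, at 79.2 to 84.0 against at most 14.8. Pro-apoptotic genes set against MCL1 went apart: BBC3 to MCL1 was 1.39-fold higher in MGO, whereas PMAIP1 to MCL1 was 1.52-fold lower and BCL2L11 to MCL1 3.21-fold lower. The BAX to BCL2 ratio was 3.72 to 4.04 in untreated and 8.80 to 11.3 in MGO libraries, so it was higher with MGO although BAX itself fell. BAK1 to BAX was 0.395 to 0.417 in untreated and 0.776 to 0.882 in MGO. For all of these ratios except BBC3 to MCL1 and PMAIP1 to MCL1, the group means differed by over 2-fold. In none did the groups overlap, but 83.5% of single genes did not overlap either. A ratio of 2 members that moved in opposite directions separates with them. The pairs were chosen and the ratios were not tested.

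For the called member with the largest change in each class, the genes with the most similar values over the 6 libraries were sought among 10866 genes averaging at least 5 CPM. Likeness was the Euclidean distance of log2 CPM after subtraction of the untreated mean. The nearest to BMF were MTM1 (distance 0.118, log2 fold change -2.13), JAKMIP2 (0.126, -2.16) and GNG2 (0.143, -2.13). Nearest to BAX were RCN2 (0.0391), CACYBP (0.0420) and STAU2 (0.0559), all with log2 fold changes between -0.62 and -0.58. Nearest to BCL2 were PCDH19 (0.109), REEP1 (0.121) and FZD8 (0.144), at log2 fold changes of -1.92, -1.95 and -1.85. With 2 groups of 3 libraries, such likeness mostly restates a fold change of the same size.

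The other family genes changed less than BMF, BCL2, BBC3 or BCL2L1 in log2 terms. Of 10 listed, 7 were tested, 4 rose, 1 fell and 2 missed the threshold (median 0.21 on the log2 scale). BID, which links death receptors to mitochondria once cut by caspase-8, fell from 40.3 ± 1.41 to 25.1 ± 1.53 CPM (log2 fold change -0.68). BCL2L2, which encodes the anti-apoptotic BCL-W, rose from 17.9 to 27.3 CPM, and the BH3-only gene BAD from 10.0 to 14.2 CPM. BCL2L13 rose from 76.2 to 88.3 CPM (adjusted p = 1.16e-05), a call lost with no filter on low counts (0.573). HRK, another BH3-only gene, passed the test at 12.5 to 15.2 CPM (adjusted p = 0.00215), but its groups overlapped, and without MGO replicate 4 the adjusted p was 0.0804. The BAX-like BOK (3.69 and 3.54 CPM, log2 fold change -0.05, SE 0.14) and BCL2L12 (61.3 in both groups, SE 0.042) did not pass. BCL2A1, BCL2L10 and BCL2L14 had at most 8 counts in any library and were not tested. BAD shares 23.7% of its exon bases with GPR137 and BCL2L12 shares 33.1% with IRF3, both on the opposite strand. BCL2L2 shares 19.4% with BCL2L2-PABPN1 on the same strand, so its level is less certain.

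Genes of caspases and of the apoptosome, which forms after cytochrome c release, were mixed: of 9 tested, 3 rose, 4 fell and 2 were not called. CYCS (cytochrome c) rose from 278 to 489 CPM and CASP2 from 81.0 to 105 CPM. The executioner gene CASP6 fell from 21.3 ± 1.11 to 5.84 ± 0.302 CPM. The initiator CASP9 fell from 18.9 to 12.7 CPM and its scaffold APAF1 from 68.2 to 54.2 CPM. The median log2 fold change of the list was -0.03.

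Factors released between the mitochondrial membranes and the inhibitor of apoptosis proteins (IAPs) gave 4 rises, 4 falls and 1 gene that did not pass among 9 tested (median log2 fold change -0.00143). BIRC5 (survivin) rose from 382 to 579 CPM, the giant IAP gene BIRC6 from 90.3 to 141 CPM and the protease gene HTRA2 from 23.7 to 33.1 CPM. XIAP, the strongest caspase inhibitor, fell from 65.1 to 41.9 CPM, AIFM1 from 152 to 107 CPM, ENDOG from 15.5 to 10.6 CPM and BIRC3 from 1.42 to 0.333 CPM. The fall of BIRC3 rests on low levels, and the gene was not tested under a filter of at least 1 CPM in every library. SPOUT1, on the other strand, covers 39.2% of the exon bases of ENDOG. HTRA2 shares 16.1% of its exon bases with AUP1 and 20.8% with LOXL3, both on the opposite strand and both higher in MGO (AUP1 at 84.9 and 168 CPM, LOXL3 at 2.47 and 4.91 CPM). DIABLO, an antagonist of IAPs, rose from 1.47 ± 0.191 to 9.34 ± 0.478 CPM. Its symbol belongs to 2 GENCODE genes, so its level is uncertain.

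In the death receptor arm 2 of 8 genes rose, 4 fell and 2 were not called (list median -0.11 on the log2 scale). TNFRSF10B, a receptor for the ligand TRAIL, rose from 143 ± 2.58 to 227 ± 8.66 CPM. TNFRSF1A fell from 70.7 to 44.6 CPM, the adaptor genes FADD from 12.6 to 6.67 CPM and TRADD from 9.52 to 5.24 CPM, and the caspase-8 inhibitor CFLAR from 18.2 to 15.9 CPM. Under a filter of at least 1 CPM per library, the adjusted p of CFLAR was 0.0533. Antisense AP000879.1 covers 54.9% of the exon bases of FADD. TNFRSF10A passed at 14.6 and 16.6 CPM (adjusted p = 0.0224) with overlapping groups. Its call was lost without untreated replicate 1, 2 or 4 (adjusted p = 0.0656, 0.0545 and 0.0719) and without MGO replicate 3 or 4 (0.528 and 0.0655), in a range over alternatives of 0.00211 to 1.

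Among 15 known transcriptional regulators of family genes, 7 rose, 6 fell and 2 were not called (list median -0.04 on the log2 scale). The stress factors ATF3 (26.0 to 803 CPM), ATF4 (242 to 1985 CPM) and DDIT3 (1.34 to 23.6 CPM), which encodes CHOP, had the largest rises, and RELA went from 80.9 to 192 CPM. TP73 fell from 34.7 to 18.8 CPM, MYC from 27.3 to 11.5 CPM and CREB1 from 52.9 to 35.8 CPM. DDIT3 shares 27.2% of its exon bases with MARS on the opposite strand. The regulators' RNA levels do not show their activity on the members.

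Of 10 genes for the turnover or holding of MCL1 and BH3-only proteins, 4 rose, 4 fell and 2 were not called (list median 0.01 on the log2 scale). Genes of ubiquitin ligases that act on MCL1 were split, with HUWE1 (341 to 510 CPM) and FBXW7 (11.7 to 20.7 CPM) higher and BTRC (52.1 to 18.9 CPM) lower. GSK3B, a kinase that marks MCL1 for breakdown, fell from 88.6 ± 1.08 to 38.1 ± 2.39 CPM. DYNLL2, the light chain that holds BMF, rose from 164 to 192 CPM, a call lost with no filter on low counts (adjusted p = 0.475). FBXO4, a ubiquitin ligase gene, fell from 7.58 to 6.28 CPM. The calls on USP9X (777 to 735 CPM) and PSMA7 (248 to 274 CPM) were not secure. The first was lost without untreated replicate 2 (adjusted p = 0.0761) and under RLE scaling (0.105), the second without MGO replicate 1 (0.110) and with library size as the only scaling (0.455), and PSMA7 turned to -0.0417 on the log2 scale with no filter on low counts.

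Outer membrane partners gave 3 rises, 6 falls and 1 gene that did not pass among 10 tested (median log2 fold change -0.28). The channel genes diverged: VDAC1 fell from 404 ± 1.04 to 170 ± 2.89 CPM and VDAC3 from 154 to 68.7 CPM, whereas VDAC2, whose protein holds BAK1 at the membrane, rose from 200 to 332 CPM. MFN1 fell from 52.2 to 32.9 CPM and MTCH2, a receptor for cut BID, from 121 to 86.3 CPM. HSPA9 rose from 467 to 595 CPM. DNM1L, at 135 and 146 CPM (adjusted p = 0.0099), was no longer called without untreated replicate 1 (0.0735), MGO replicate 3 (0.120) or MGO replicate 4 (0.102), and turned to -0.0757 on the log2 scale with no filter on low counts. All 8 genes of DNA fragmentation factors and caspase substrates were called, 4 higher and 4 lower (median log2 fold change -0.17). PARP1 fell from 1201 ± 41.8 to 512 ± 28.8 CPM, the nuclease gene DFFB from 20.5 to 7.93 CPM, GSN from 38.5 to 22.2 CPM and PAK2 from 147 to 101 CPM. ACIN1 (166 to 313 CPM), ROCK1 (68.8 to 93.2 CPM) and DFFA (32.3 to 42.4 CPM), the inhibitor of DFFB, rose, and LMNA (149 to 172 CPM) lost its call with no filter on low counts (adjusted p = 0.568). The share of called genes in the 8 lists ran from 71.4% to 100%, around the 83.1% of all genes tested.

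**Figure D4:**
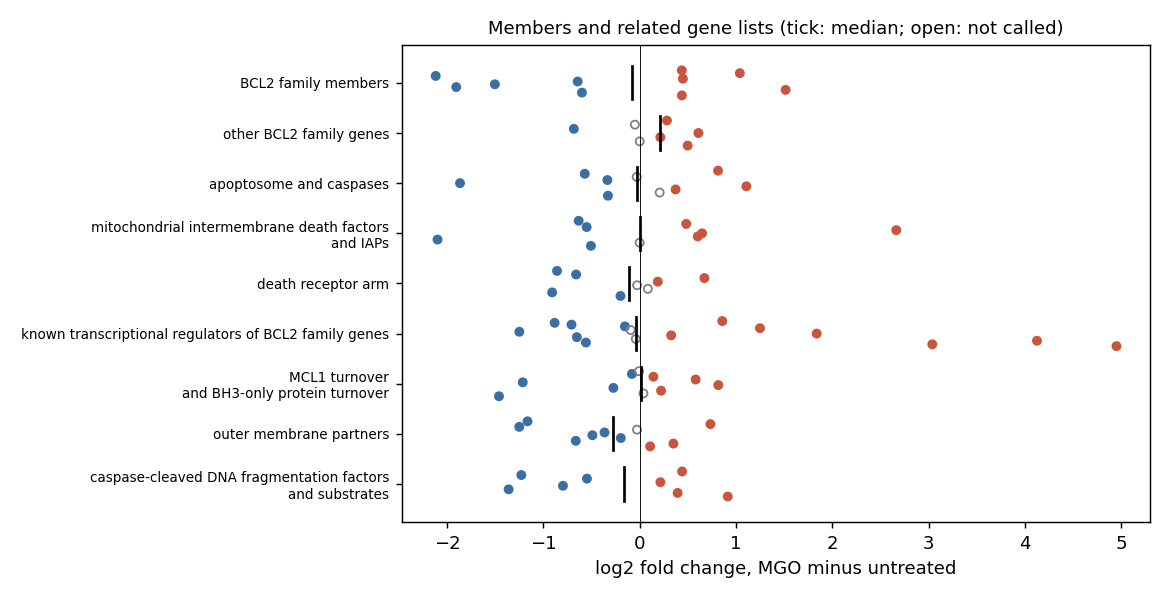
Log2 fold change of each tested gene in the family and in 8 related lists, with 1 point per gene (red higher, blue lower, open not called) and a tick at each list's median. Every list holds genes on both sides of 0, and the medians lie between -0.28 (outer membrane partners) and 0.21 (other family genes).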

How the data were processed

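The authors deposited 1 table of raw, not normalized counts for each of 6 libraries, keyed by gene symbol. Per the submitters' processing notes, the build was hg38 and the tools included STAR 2.4, HTSeq 0.9.1, Picard and Trim Galore. The sources used here do not state the annotation or the strand setting. Antisense and overlapping genes are therefore uncertain. Of the rows, 29 carry a date in place of a symbol and 4 have a repeated name, and none is named here.

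Counts were fitted in edgeR 4.0.16 (R 4.3.3) with filterByExpr, TMM scaling, robust glmQLFit and a two-sided glmQLFTest on group alone, adjusted by Benjamini-Hochberg over 17415 genes at 0.05. A standard error was taken as the absolute log2 fold change over the square root of F. Log2 CPM used a prior count of 2. The fit was tested on simulated data in which most genes did not change, whereas 83.1% of genes were called here. Within each group, a chi-square between libraries gave 1.88 to 14.7 per degree of freedom, so no pair agreed within sampling noise.

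Coordinates, exon lengths and overlaps come from GENCODE 29 (GRCh38, the assembly of hg38), and promoter windows from RefSeq (GRCh38.p14, 8 of 10 members matched).

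Members and lists were chosen with earlier results of these data known. The rule for named genes took all members and other family genes, up to 4 called genes per direction and list by p, and the 3 nearest patterns per class. Some genes that this rule names are not reported here. No protein is printed. The alternatives were other scalings (RLE, upper quartile, library size), 2 other filters, leaving out libraries, replicate blocks, limma 3.58.1 voom, DESeq2 1.42.0, no robust shrinkage, a test against a fold of 1.5, and thinned untreated libraries.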

Additional observations from a re-analysis of the deposited data

How the results depend on the processing

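Over 19 alternatives, all 10 members kept their direction. BBC3, BMF, BCL2, BCL2L1 and MCL1 passed the threshold in every one, and PMAIP1, BCL2L11, BAX and BAK1 in all but the test against a fold of 1.5, while BIK lost its call in 5. Against that fold, 2 members were higher and 3 lower, and over all genes 4363 were higher and 3942 lower. Library size as the only scaling moved the median log2 fold change of all genes from 0.01 to -0.10, omitting the filter moved it to 0.20 and DESeq2, over more genes, to 0.25. Omitting the filter on low counts gave BMF -2.30 and PMAIP1 0.25, and turned PSMA7 to -0.0417 (adjusted p = 0.422) and DNM1L to -0.0757 (0.151). The cause was not tested.

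Leaving out 1 library kept 5 members higher and 5 lower each time, with 6947 to 7441 genes higher and 6919 to 7444 lower over all genes. Numbers 1 and 4 occur in both groups, and libraries with the same number did not deviate together (correlations of 0.0204 and -0.0078). Pairs with different numbers gave -0.0297 to 0.0389. Whether libraries with the same number share a culture or day is not stated and cannot be settled from these correlations. With the replicate block 4 members were higher and 5 lower, as BIK was lost, and 6778 genes were higher and 6673 lower. With a random replicate block the counts were 5 and 5, and 7295 and 7143. BIK had the fewest counts of the members, at 75 to 147. With untreated libraries thinned to the mean MGO total, 5 members were again higher, BIK among them, and 5 lower. A count of 0 in an MGO library allows 0.143 to 0.166 CPM (3 counts, for counting error only).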
